A study of Mus musculus with 7 samples.

Results

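The transcripts described here encode 10 regulators of cardiac energy metabolism: the coactivators Ppargc1a and Ppargc1b, the PPAR receptors Ppara, Ppard and Pparg, the estrogen-related receptors Esrra, Esrrb and Esrrg, and the transcription factors Nrf1 and Tfam. They were chosen by name for their roles in metabolism, with earlier results of these data known, and all 10 were found among the 56980 genes of the deposited expression table. Wild-type male C57BL/6J mice, obtained at 8 weeks of age, underwent ligation of the left coronary artery to produce myocardial infarction (MI, n = 3) or a sham operation (n = 4). Myocardial tissue was collected 4 days after surgery, and total RNA from each mouse was sequenced as 1 library. The study calls the MI tissue ischemic myocardium, and how it was divided between infarct and border is not given in the sources used here. The samples carry separate replicate numbers and are treated as separate animals.

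PGC-1 coactivators do not bind DNA themselves but are recruited to genes by transcription factors, among them the PPAR and ERR nuclear receptors and NRF1. Through the PPARs they act on genes of fatty acid uptake and oxidation, and through the ERRs and NRF1 on genes of the citric acid cycle, the respiratory chain and the mitochondrial transcription factor TFAM. In adult heart muscle, which relies largely on fatty acid oxidation, PPAR-alpha, ERR-alpha and ERR-gamma are the receptors best known for this role, whereas PPAR-gamma is best known for its function in fat cells.

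The promoters of 3 regulators are shown because each holds the letters of a short element known from this network: a cyclic AMP response half-site in Ppargc1a, an NRF1 element in Ppara, and an element of the kind that GABP (also called NRF-2) binds in Tfam. Each stretch is the 250 bases before the RefSeq transcription start, from assembly GRCm38.p6, on the strand of the gene, and capitals mark the element. That of Ppargc1a is chr5:51567726-51567975 on the minus strand, that of Ppara is chr15:85735526-85735775 on the plus strand, and that of Tfam is chr10:71238045-71238294 on the minus strand. By the GENCODE M21 gene coordinates given below, the Ppara window and most of the Tfam window, with their elements, lie inside the gene.
Ppargc1a: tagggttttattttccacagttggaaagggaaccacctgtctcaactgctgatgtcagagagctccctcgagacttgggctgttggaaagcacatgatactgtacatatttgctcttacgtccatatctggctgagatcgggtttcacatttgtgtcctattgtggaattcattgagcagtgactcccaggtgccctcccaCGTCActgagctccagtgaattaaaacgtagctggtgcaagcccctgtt
Ppara: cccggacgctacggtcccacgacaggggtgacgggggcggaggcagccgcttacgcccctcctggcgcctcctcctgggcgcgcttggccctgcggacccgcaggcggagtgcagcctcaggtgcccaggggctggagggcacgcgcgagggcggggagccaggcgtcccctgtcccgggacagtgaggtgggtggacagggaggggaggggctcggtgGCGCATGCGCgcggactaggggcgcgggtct
Tfam: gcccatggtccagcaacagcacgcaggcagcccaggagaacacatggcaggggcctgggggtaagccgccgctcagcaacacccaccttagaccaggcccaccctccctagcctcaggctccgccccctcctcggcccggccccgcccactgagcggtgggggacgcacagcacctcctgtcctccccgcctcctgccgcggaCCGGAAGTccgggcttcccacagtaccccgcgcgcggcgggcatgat

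RefSeq promoters were matched for 9 of the 10 regulators, 16 promoters in all. The Ppargc1a half-site (TGACG, read on the opposite strand) began 49 bases before the start, and the same 5 letters occur in 17.8% of 32851 promoters of the same length, on either strand. The NRF1 element of Ppara (GCGC, then any base, then TGCGC) began 31 bases before the start, and 3.74% of promoters hold it. The GABP element of Tfam (CCGGAAGT) began 47 bases before the start, and 2.88% of promoters hold it. Searched on both strands, the ERR element TNAAGGTCA (1.14% of promoters), the PPAR element, 2 copies of AGGTCA with 1 base between them (0.0335%), and the full cyclic AMP response element TGACGTCA (1.55%) were not in any of the 16 windows. The full element contains the half-site, and half-sites without capitals also lie in the Ppara promoter and in 1 promoter of Esrrb. These matches describe letters in the windows, and binding was not measured.

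Expression is given as FPKM, the fragments per kilobase of gene length, scaled to the total fragments of the library. Libraries held 19977710 to 23610866 fragments, as recovered from the steps between FPKM values. One MI mouse stood apart: MI replicate 2 correlated with the sham mice at r = 0.984 to 0.987 over the log2 values of all tested genes, close to the 0.989 to 0.992 among sham mice, whereas MI replicates 1 and 3 reached 0.878 to 0.881 and 0.903 to 0.906. Of 8 cardiomyocyte markers, all were detected, and their summed FPKM was 13700 to 15000 in the sham mice, 9090 and 9640 in MI replicates 1 and 3, and 13800 in MI replicate 2. Summed FPKM of 8 fibroblast markers was 122 to 145 in sham mice and 2490, 232 and 1920 in MI replicates 1, 2 and 3, and that of 8 macrophage markers was 156 to 202 against 1070, 189 and 924. That of 6 endothelial markers was 126 to 144 in sham mice and 158, 119 and 170 in MI replicates 1 to 3. Mitochondrially encoded genes took 26.5% to 27.4% of fragments in sham mice, 13.6% and 14.9% in MI replicates 1 and 3, and 28.2% in MI replicate 2. Of 4 atrial markers only Nppa reached 1 FPKM in any mouse, at 69.7 to 185 FPKM in sham mice and 7940, 160 and 8130 FPKM in MI replicates 1 to 3. Of 6 skeletal muscle markers 3 did, with Myh4 at 0 in every mouse, and their summed FPKM was 741 to 1070 in sham mice and 761, 839 and 934 in MI replicates 1 to 3. In bulk tissue, fewer cells of a type and less RNA per cell cannot be told apart. The limma results of the regulators and the counts of each list are therefore given with all MI mice and without MI replicate 2, and the part of these cell type markers in them was not tested. The fit without MI replicate 2 is shown because that mouse resembled the sham mice. It rests on MI replicates 1 and 3, the MI mice that differ most from sham, so its small p-values follow in part from this choice. At an adjusted p under 0.05 that fit called 57.0% of all genes higher and 14.7% lower.

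In sham hearts Esrra had the highest level of the 10 regulators, 19.7 ± 0.856 FPKM (SD, n = 4), followed by Ppargc1a at 16.1 ± 5.17 FPKM. Tfam, Ppara and Ppargc1b formed a middle tier at 7.68, 6.49 and 6.18 FPKM. Ppard, Esrrg, Esrrb and Pparg lay lower, at 3.37, 3.24, 2.49 and 2.48 FPKM. Nrf1 was lowest at 0.37 FPKM. Neighbours within a tier overlapped in their sham ranges, as did Esrra and Ppargc1a, so these ranges do not resolve their order. Ppargc1a and Tfam, Ppargc1b and Ppard, and Pparg and Nrf1 did not overlap. Compared within each mouse, Esrrg exceeded Esrrb in all 4 sham mice, with Esrrb minus Esrrg at -0.59, -0.3, -0.16 and -0.11 in log2(FPKM + 1). These per-length levels depend on the gene lengths used for FPKM, which were 1.1 to 2.29 times the exon lengths of the GENCODE M21 annotation. With the M21 lengths the sham mean of Esrrg was 7.41 FPKM and it moved from the 7th to the 5th place, and Ppara (10.2 FPKM) passed Tfam (9.2 FPKM).

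**Figure D1:**
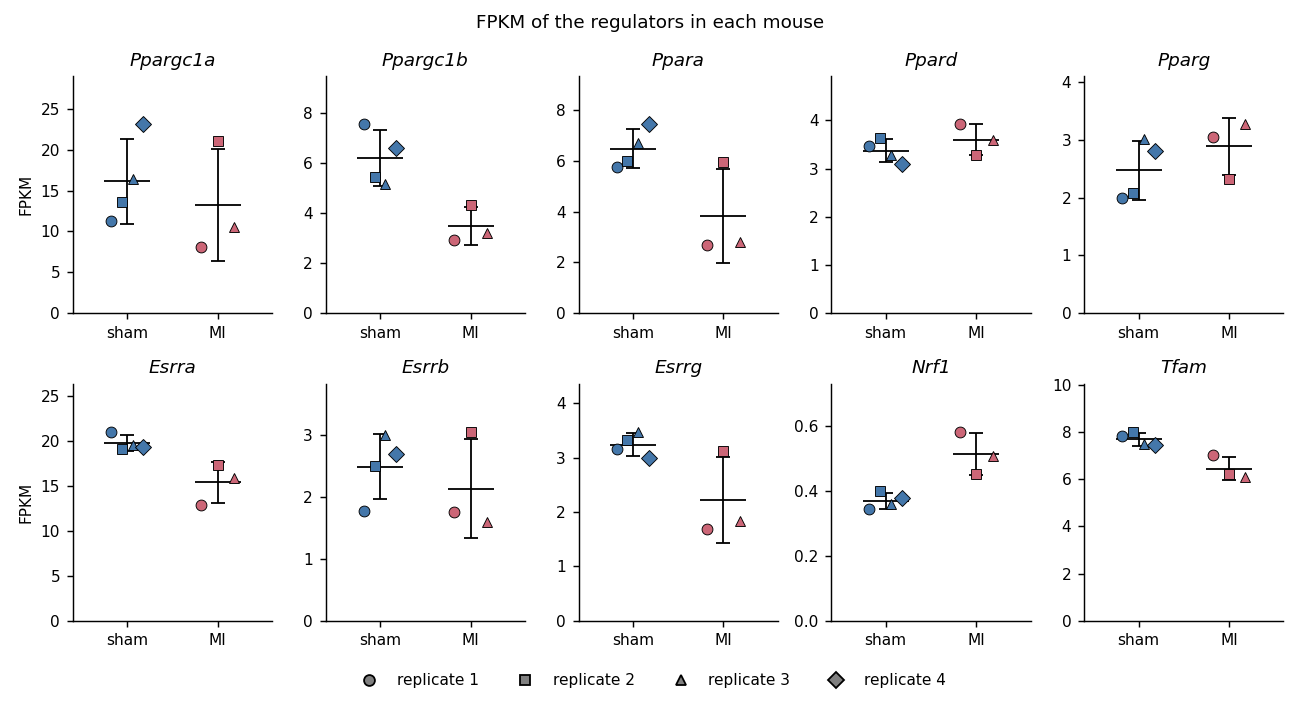
FPKM of each regulator (vertical axes, each from 0) in the 4 sham mice (blue) and 3 MI mice (red); symbols mark the replicate number, the horizontal line is the group mean and the bars are 1 SD. Every MI mouse lies below every sham mouse for Ppargc1b, Esrra and Tfam and above for Nrf1, and MI replicate 2 (square) lies within the sham range for Ppargc1a, Ppara, Ppard, Pparg and Esrrg.

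Most of the regulators had lower mean levels after MI, with Ppargc1b at 56.2%, Ppara at 58.9% and Esrrg at 68.5% of the sham mean FPKM, while Ppard, Pparg and Nrf1 were at 107%, 117% and 139%. Of the 9 regulators that could be tested, 7 had a negative log2 fold change, whereas 8340 of all 11431 tested genes had a positive one. With all 7 mice, none passed a Benjamini-Hochberg adjusted p of 0.05 in limma's moderated test across 11431 genes, where 0.0175% of genes were called higher and 0.00875% lower. At an unadjusted limma p under 0.05, 5 regulators were lower (Ppargc1b, Ppara, Esrra, Esrrg and Tfam) and 0 were higher, against 9.85% of all genes lower and 29.5% higher. With TPM in place of FPKM, 2 of these 5 (Ppargc1b and Ppara) had an unadjusted p under 0.05. With a log2 fold change beyond 0.5 required as well, Ppargc1b and Ppara remained lower, against 4.80% of all genes lower and 17.8% higher. By that rule 4 were lower (Ppargc1a, Ppargc1b, Ppara and Esrrg) and 0 higher without MI replicate 2, against 8.42% and 35% of all genes. Without MI replicate 2, limma called 6 of the 9 lower at an adjusted p under 0.05 (Ppargc1a, Ppargc1b, Ppara, Esrra, Esrrg and Tfam) and 0 higher (Pparg and Ppard had unadjusted p of 0.0843 and 0.133), whereas 14.7% of all genes were called lower and 57.0% higher. Taking only MI replicates 1 and 3, both lay below every sham mouse for 7 of the 9 and above for 1, Pparg, against 16.9% and 61.9% of all genes. With sample weights in limma, 7 regulators were called lower and 1 higher (Pparg), against 20.3% and 66.8% of all genes, although that fit rests mainly on MI replicate 3. All 9 tested regulators were above 1 FPKM in every mouse, so the filter on low values did not select them by group.

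The log2 fold changes were computed on log2(FPKM + 1), a scale that understates the change of genes near or below 1 FPKM. The median log2 fold change over all tested genes was 0.21, so a value of 0 lies below that of the typical gene. The median of the 9 regulators was -0.32, or -0.53 relative to the median gene. Under TPM, quantile normalization, median log-ratio scaling and removal of mitochondrial fragments the median gene moved to 0.42, -0.03, 0 and 0.11.

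Of the coactivators, Ppargc1b showed the clearer separation between the groups. PGC-1-beta, its product, is a constitutive partner of the PPARs and ERRs. Ppargc1b, a gene of chromosome 18 (ENSMUSG00000033871), was at 7.56, 5.43, 5.15 and 6.59 FPKM in sham replicates 1 to 4 and at 2.92, 4.32 and 3.18 FPKM in MI replicates 1 to 3. All MI mice were below all sham mice, MI replicate 2 included. As a background, 9.00% of tested genes had every MI mouse below every sham mouse and 16.1% had every MI mouse above. The limma log2 fold change was -0.68 (SE 0.161, unadjusted p = 0.0034, adjusted p = 0.108). Without MI replicate 2 it was -0.81 with an adjusted p of 0.00156. The gene encoding the microRNA Mir378a lies inside Ppargc1b but shares 0 exon bases with it in M21.

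Ppargc1a, whose product PGC-1-alpha is the inducible member of the family, varied more among the sham mice than most genes. Ppargc1a (ENSMUSG00000029167, chr5:51454250-51567726, minus strand) was at 11.3, 13.6, 16.4 and 23.2 FPKM in sham replicates 1 to 4 and at 8.1, 21.1 and 10.6 FPKM in MI replicates 1 to 3. The highest sham mouse had 2.05 times the level of the lowest, and the sham SD of its log2 value was larger than that of 97.9% of tested genes. MI replicates 1 and 3 were below every sham mouse, while MI replicate 2 was second only to sham replicate 4. With all mice the log2 fold change was -0.32 (SE 0.342), and limma's adjusted p was 0.467. Without MI replicate 2 it was -0.69 (SE 0.257, adjusted p = 0.0446 in limma). These values rest on 1485 to 4028 fragments per mouse.

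The 5 tested genes whose profile over the 7 mice was closest to that of Ppargc1a, by the mean absolute difference of log2 deviations from the sham mean, were Ppp1r3a (0.126), Uqcc1 (0.13), Cenpf (0.133), Shld1 (0.143) and BC002189 (0.145). Ppp1r3a, which encodes a glycogen-targeting subunit of protein phosphatase 1 in striated muscle, was at 22.7, 23.2, 27.9 and 33.4 FPKM in sham replicates 1 to 4 and at 15.5, 30.4 and 17.1 FPKM in the MI mice. Uqcc1, an assembly factor of respiratory complex III, was at 5.53, 6.82, 7.9 and 8.36 FPKM in sham mice and at 3.4, 10.4 and 4.05 FPKM after MI. Both shared with Ppargc1a the upward order of the sham mice and the high value of MI replicate 2. The 2 coactivators did not differ detectably from each other in their change: the log2 difference Ppargc1a minus Ppargc1b was 1.22 ± 0.51 in sham mice (SD, n = 4) and 1.58 ± 0.43 after MI (n = 3), with an exact two-sided permutation p of 0.4. The change of this difference was 0.36, or 0.12 with MI replicate 2 left out. This test compares 3 with 4 mice over 35 splits and cannot give a p below 0.0571.

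Within the PPAR family, the lower mean level after MI was that of Ppara. Ppara, encoding the PPAR isotype of tissues with high fatty acid oxidation (ENSMUSG00000022383, chr15:85734983-85802819, plus strand), was at 5.77, 6.01, 6.72 and 7.47 FPKM in sham replicates 1 to 4 and at 2.69, 5.96 and 2.81 FPKM in MI replicates 1 to 3. MI replicates 1 and 3 had 41.5% and 43.3% of the sham mean, and MI replicate 2, at 91.8%, lay inside the sham range. The log2 fold change was -0.70 (SE 0.23, unadjusted p = 0.0183, adjusted p = 0.108, limma). Without MI replicate 2 it was -0.99 (SE 0.098), and its adjusted limma p was 1.28e-04.

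Ppard encodes the most widely expressed PPAR isotype, and its gene lies at chr17:28232700-28301474 on the plus strand. Its level was 3.47, 3.64, 3.28 and 3.09 FPKM in the sham mice and 3.93, 3.29 and 3.59 FPKM in MI replicates 1 to 3. Pparg, at chr6:115360951-115490399 on the plus strand, was at 2.00, 2.08, 3.02 and 2.80 FPKM in the sham mice and at 3.05, 2.33 and 3.28 FPKM after MI. Both genes overlapped between groups, with log2 fold changes of 0.07 (SE 0.094) for Ppard and 0.16 (SE 0.149) for Pparg and adjusted limma p-values of 0.54 and 0.398. Their signs were negative under quantile normalization and under median log-ratio scaling, and for Ppard also without mitochondrial fragments.

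The make-up of the PPAR transcripts differed in the same 2 MI mice. Ppara made up 51.2% to 55.9% of the summed PPAR FPKM in the sham mice, 27.9% and 29% in MI replicates 1 and 3, and 51.4% in MI replicate 2. Pparg made up 17.7% to 23.2% in sham mice and 31.5%, 20.1% and 33.9% in MI replicates 1 to 3. The within-mouse difference of log2(FPKM + 1), Ppara minus Pparg, was 1.11 ± 0.12 in sham mice (SD, n = 4) and 0.25 ± 0.7 after MI (n = 3), with an exact permutation p of 0.114 and 0.305 after adjustment over the 8 pairs compared. Ppara minus Ppard was 0.77 ± 0.22 in sham mice and 0 ± 0.6 after MI, with an exact permutation p of 0.171 and an adjusted p of 0.343. Neither could pass the threshold, as this test cannot give a p below 0.0571 with these mice, and MI replicate 2 overlapped the sham mice in both. Without MI replicate 2 the 2 pairs moved by -1.26 and -1.11 between groups in place of -0.86 and -0.77, as values with no test.

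**Figure D2:**
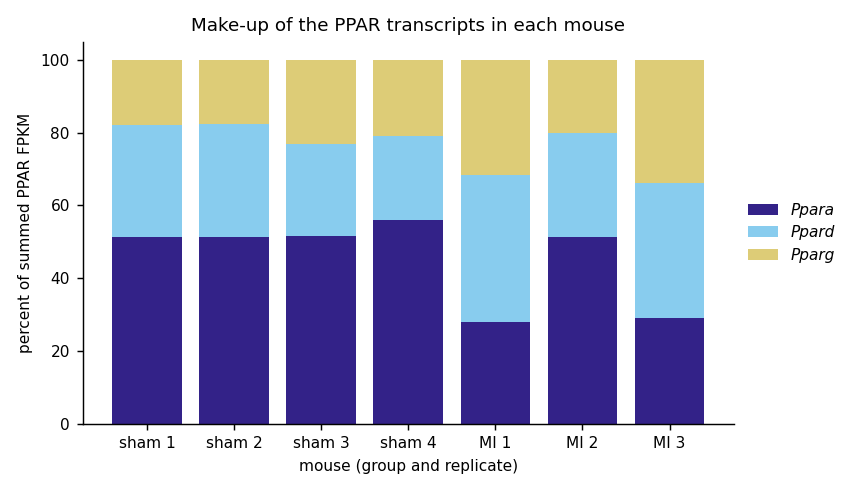
Share of Ppara, Ppard and Pparg (stacked bars, percent of their summed FPKM) in each of the 7 mice (horizontal axis, sham 1 to 4 and MI 1 to 3). The Ppara share is 27.9% and 29% in MI replicates 1 and 3 and at least 51.2% in the other mice.

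All 3 estrogen-related receptors had lower mean levels after MI, Esrra at 77.9%, Esrrb at 85.7% and Esrrg at 68.5% of the sham mean. Esrra, whose product ERR-alpha acts with the PGC-1 coactivators on oxidative phosphorylation genes (ENSMUSG00000024955, chr19:6910977-6921813, minus strand), was at 21, 19.1, 19.5 and 19.3 FPKM in the sham mice and at 12.9, 17.3 and 15.9 FPKM in MI replicates 1 to 3. Every MI mouse was below every sham mouse, and the sham mice varied by only 4.34% of their mean. The log2 fold change was -0.35 (SE 0.115, unadjusted p = 0.0181, adjusted p = 0.108, limma). It was -0.43 with an adjusted limma p of 0.00372 when MI replicate 2 was left out, and -0.17 with an unadjusted limma p of 0.214 under TPM. Esrra shares 73 exon bases with Trmt112 on the opposite strand, which reached at most 3.22 FPKM, and whether strand was used in counting is not given in the sources used here.

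Esrrg, encoding an ERR of tissues with high energy demand, spans chr1:187608791-188214885 on the plus strand. Its level was 3.16, 3.32, 3.48 and 2.99 FPKM in the sham mice and 1.68, 3.13 and 1.84 FPKM in MI replicates 1 to 3. As for Ppara, 2 MI mice were far below the sham range and MI replicate 2 was inside it. The log2 fold change was -0.42 (SE 0.158, adjusted p = 0.112, limma) with all mice and -0.62 (SE 0.069, adjusted p = 2.28e-04) without MI replicate 2. Esrrb, at chr12:86361117-86521628 on the plus strand, is best known for its role in pluripotent cells. It was at 1.77, 2.51, 3.00 and 2.70 FPKM in sham mice and at 1.76, 3.06 and 1.59 FPKM after MI. Its groups overlapped, with a log2 fold change of -0.17 (SE 0.193) and an adjusted limma p of 0.494, and without MI replicate 2 the change was -0.37 with an adjusted p of 0.0503.

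The ERR make-up stayed within narrower limits than that of the PPARs. Esrra made up 75.1% to 81% of the summed ERR FPKM in sham mice and 73.7% to 82.3% after MI. The 3 pairs of ERR genes gave exact permutation p-values of 0.457, 0.686 and 0.114 for a difference in their change. With these mice this test cannot give a p below 0.0571, so none could pass the threshold, and it does not show that the make-up was unchanged. Between groups, the mean log2 difference moved by -0.18 for Esrra minus Esrrb, by 0.07 for Esrra minus Esrrg and by 0.25 for Esrrb minus Esrrg. With MI replicate 2 left out these were -0.06, 0.18 and 0.25.

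Nrf1 and Tfam, the nuclear factor and its mitochondrial target, lay on opposite sides of the sham range. Nrf1 (ENSMUSG00000058440, chr6:30047988-30153458, plus strand) was at 0.344, 0.401, 0.359 and 0.378 FPKM in the sham mice and at 0.584, 0.452 and 0.508 FPKM in MI replicates 1 to 3. All MI mice were above all sham mice, and these levels correspond to 137 to 158 fragments per sham mouse and 186 to 231 fragments per MI mouse. Nrf1 did not reach 1 FPKM in any mouse and was therefore not tested with the other 9. In the limma fit without the filter its log2 fold change was 0.14 (SE 0.064), with an unadjusted p of 0.0588 and an adjusted p of 0.207.

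Tfam encodes the protein that packages mitochondrial DNA and starts its transcription, and lies at chr10:71225464-71238280 on the minus strand. It was at 7.83, 8.01, 7.47 and 7.43 FPKM in the sham mice and at 7.00, 6.22 and 6.09 FPKM in MI replicates 1 to 3. Every MI mouse was below every sham mouse, and MI replicate 2, at 80.9% of the sham mean, lay between the other MI mice (91.1% and 79.3%). The log2 fold change of Tfam was -0.23 (SE 0.087, unadjusted p = 0.0352, adjusted p = 0.114, limma) with all mice and -0.21 (adjusted p = 0.0325) without MI replicate 2. With TPM it was -0.05 with an unadjusted limma p of 0.729, so that call was lost, and under quantile normalization it was -0.49. Nrf1 minus Tfam was -2.66 ± 0.05 in sham mice (SD, n = 4) and -2.29 ± 0.05 after MI (n = 3) on the log2 scale. Its groups did not overlap, and its exact permutation p of 0.0571 is the smallest this design allows, 0.305 after adjustment over the 8 pairs. The change of the pair was 0.37, and 0.38 with MI replicate 2 left out.

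**Figure D3:**
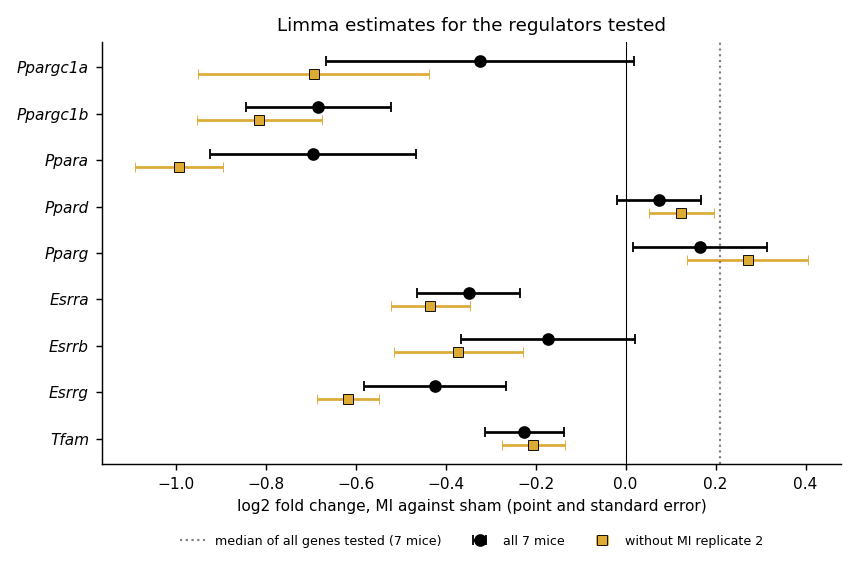
Log2 fold change of MI against sham on log2(FPKM + 1), with its standard error (horizontal bars), for the 9 tested regulators with all 7 mice (black) and without MI replicate 2 (yellow); the dotted line is the median of all genes tested, 0.21. Leaving out MI replicate 2 moves Ppara from -0.70 to -0.99 and Ppargc1a from -0.32 to -0.69, and moves Tfam only from -0.23 to -0.21.

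The levels of several regulators moved with those of the cardiomyocyte markers. The 8 markers did not fall alike, with log2 fold changes from -0.931 to -0.192, so small offsets from their mean lie within their own spread. The mean log2 change of the 8 markers from the sham mean was -0.91, -0.05 and -0.75 in MI replicates 1, 2 and 3. For Ppara the corresponding changes were -1.01, -0.1 and -0.97, and for Ppargc1b they were -0.86, -0.42 and -0.77. Relative to the markers, Ppargc1a, Ppargc1b, Ppara, Ppard, Pparg, Esrra, Esrrg and Tfam overlapped between MI and sham mice. For Ppard, Pparg, Esrra, Esrrg and Tfam that overlap rested on MI replicate 2, since MI replicates 1 and 3 were above every sham mouse, at 1.08 and 0.82 for Ppard, 1.14 and 1.06 for Pparg, 0.33 and 0.45 for Esrra, and 0.25 and 0.17 for Esrrg. Ppargc1a, Ppargc1b and Ppara had at least 1 of MI replicates 1 and 3 inside the sham range. Esrrb and Nrf1 were above every sham mouse in every MI mouse on this relative scale, where Esrrb was at 0.58, 0.28 and 0.33 and Nrf1 at 1.12, 0.14 and 0.89 in MI replicates 1 to 3. The median change of all tested genes was 0.359, -0.022 and 0.298, so the typical gene also rises on this scale in MI replicates 1 and 3. Before the subtraction Esrrb (-0.33, 0.23 and -0.42) and Nrf1 (0.21, 0.08 and 0.14) lay below that median in MI replicates 1 and 3 and above it in MI replicate 2. The share of all genes above the sham mice on this scale was not computed. Tfam was at 0.79 and 0.45 relative to the markers in MI replicates 1 and 3 and at -0.21 in MI replicate 2. These are descriptions, and the part of cardiomyocyte content in each change was not tested.

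**Figure D4:**
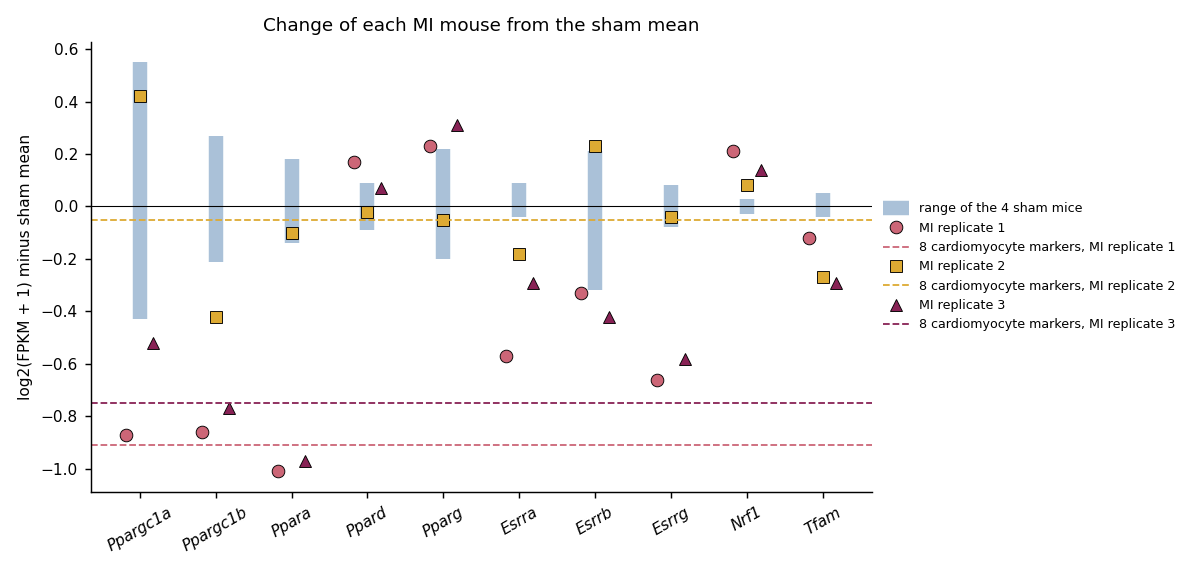
Change of each MI mouse (symbols) from the sham mean for the 10 regulators, in log2(FPKM + 1), with the range of the 4 sham mice as blue bars and the mean change of 8 cardiomyocyte markers in each MI mouse as a dashed line of the same colour. Relative to their marker lines (-0.91 and -0.75), MI replicates 1 and 3 lie at -0.22 to 0.25 for Ppargc1a, Ppargc1b, Ppara and Esrrg. For Esrra, Esrrb, Ppard, Pparg, Nrf1 and Tfam they lie 0.33 to 1.14 above them.

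Most of the genes of fatty acid use that PPARs are known to control had lower levels after MI. Of 30 such genes, all tested, 18 were lower and 4 higher at an unadjusted limma p under 0.05 with a log2 fold change beyond 0.5, where 4.80% of all genes were lower and 17.8% higher, and 0 passed the adjusted threshold in either direction. Their median log2 fold change was -0.61, against 0.21 for all genes. The 18 lower genes became 3 without MI replicate 1 and 2 without MI replicate 3, and the 4 higher became 2 without MI replicate 3, under quantile normalization, under median log-ratio scaling and without mitochondrial fragments. Calls over all genes fell as well: the 549 lower became 177 without MI replicate 1 and 251 without MI replicate 3. The 2040 higher of all genes became 640 without MI replicate 3, 1007 under quantile normalization, 1143 under median log-ratio scaling and 1584 without mitochondrial fragments. When MI replicate 2 was left out, 24 of the 30 passed limma's adjusted threshold as lower and 5 as higher, where 14.7% of all genes were lower and 57.0% higher. The 4 higher genes were Angptl4, Ucp2, Cpt1a and Plin2, of which the last is named after its values were seen. Angptl4, a secreted inhibitor of lipoprotein lipase, was at 0.467 to 1.03 FPKM in the sham mice and at 11.9, 1.83 and 7.52 FPKM in MI replicates 1 to 3, with a log2 fold change of 1.97 (SE 0.468, adjusted p = 0.108, limma) and of 2.60 without MI replicate 2. Ucp2, an inner-membrane carrier that macrophages also express, was at 3.18 to 4.26 FPKM in the sham mice and at 12.4, 5.14 and 14.7 FPKM after MI. Cpt1a, the liver-type carnitine palmitoyltransferase, was at 6.1 to 7.04 FPKM in the sham mice and at 12.4, 7.42 and 11.3 FPKM after MI. All MI mice exceeded all sham mice for these 3 genes, whereas Acot1, a cytosolic acyl-CoA thioesterase, was below in every MI mouse (2.52 to 4.65 FPKM in sham, 0.82, 2.34 and 0.826 FPKM in MI). Acot1 has near-identical paralogs, so its value is uncertain.

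Genes of oxidative metabolism known as ERR and PGC-1 targets were lower almost throughout. All 26 genes had a negative log2 fold change, whereas 8340 of all 11431 tested genes had a positive one. By the same unadjusted limma rule 21 were lower and 0 higher, against 4.80% of all genes lower. At an unadjusted p alone 23 were lower, against 9.85% of all genes, and 0 of the 26 passed the adjusted threshold. Their median log2 fold change was -0.60. The 21 lower genes became 5 with TPM, 10 to 13 without any 1 sham mouse, 1 without MI replicate 1 and 3 without MI replicate 3. In the same fits the 549 lower of all genes became 296, 401 to 455, 177 and 251. Of the 26, limma called 25 lower at an adjusted p under 0.05 without MI replicate 2, against 14.7% of all genes. Slc25a4, the main ADP/ATP carrier of heart mitochondria, was at 1530 to 1720 FPKM in the sham mice and at 678, 1390 and 848 FPKM in MI replicates 1 to 3 (log2 fold change -0.78, adjusted p = 0.108, limma, and -1.08 without MI replicate 2). Cycs, encoding cytochrome c, was at 45.9 to 49.8 FPKM in sham mice and at 24.1, 41.5 and 27.9 FPKM after MI. Sdhb, the iron-sulphur subunit of succinate dehydrogenase, was at 228 to 280 FPKM against 120, 232 and 149 FPKM, and Vdac1, a channel of the outer mitochondrial membrane, at 261 to 266 FPKM against 152, 232 and 189 FPKM. The list moved with the cardiomyocyte markers, whose median log2 fold change was -0.64.

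The RXR receptors are the obligate dimer partners of the PPARs. Of the genes in this and the following lists, none passed limma's adjusted threshold with all mice. Rxrg was at 14.6 to 15.9 FPKM in the sham mice and at 6.07, 12.6 and 7.14 FPKM in MI replicates 1 to 3, with every MI mouse below every sham mouse (log2 fold change -0.82, SE 0.213, adjusted p = 0.108, limma, and -1.09 without MI replicate 2). Rxra and Rxrb overlapped between the groups, at log2 fold changes of 0.03 and 0.21. Of 11 coactivators and PGC-1 relatives, 2 were lower by the unadjusted rule, namely Perm1 and Lpin1, and 0 were higher (1 at an unadjusted p alone), against 4.80% of all genes lower and 17.8% higher. The 2 became 1 with TPM and without sham replicate 3 or 4, and 0 without MI replicate 1 or 3. In each of these fits the lower calls over all genes also fell below the 549 of the reported fit. Perm1, a muscle regulator of ERR and PGC-1 targets, was at 95.6 to 100 FPKM in sham mice and at 41.7, 90.5 and 51.1 FPKM after MI. Lpin1, a phosphatidate phosphatase that also coactivates PPAR-alpha, was at 10.4 to 15.4 FPKM against 8, 10.2 and 5.83 FPKM. Ncoa3, a histone acetyltransferase coactivator, was at 4.32 to 5.36 FPKM in sham mice and at 6.31, 5.39 and 6.16 FPKM after MI, with a log2 fold change of 0.27. Every MI mouse was thus above every sham mouse, MI replicate 2 only just, as for 16.1% of all genes. Crebbp, an acetyltransferase related to p300, was at 2.66 to 3.11 FPKM in sham mice and 4.1, 2.97 and 3.87 FPKM after MI, and its groups overlapped. With MI replicate 2 removed, 3 of the 11 were called higher and 3 lower at limma's adjusted threshold, and 1 of the 3 RXR genes in each direction, against 57.0% and 14.7% of all genes.

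Of 9 corepressors and repressing modifiers, 1 was lower and 0 higher by the unadjusted limma rule, and 2 were higher at an unadjusted p alone (Sirt1 and Kat2a), against 4.80% of all genes lower and 17.8% higher by the rule and 29.5% higher by p alone. The 1 lower became 0 with TPM, with sample weights and without sham replicate 2, sham replicate 3 or MI replicate 1. The 0 higher became 2 with TPM, with sample weights (a fit resting mainly on MI replicate 3) and without MI replicate 2. Over all 11431 genes, 3741, 3730 and 4006 were higher in these fits, against 2040 as reported. The lower gene was Nr0b2, which encodes the orphan receptor SHP that lacks a DNA-binding domain. It was at 8 to 9.9 FPKM in sham mice and at 5.03, 6.79 and 6.44 FPKM after MI. Sirt1, a deacetylase that represses some promoters but is known as an activator of PGC-1-alpha, was at 1.2 to 1.27 FPKM against 1.71, 1.45 and 1.74 FPKM. Kat2a, an acetyltransferase that represses PGC-1-alpha, was at 4.84 to 5.77 FPKM in sham mice and 8.93, 5.45 and 7.72 FPKM after MI, and Nrip1, the corepressor RIP140, at 1.04 to 1.32 FPKM against 1.74, 1.21 and 1.59 FPKM, both with overlapping groups. Leaving out MI replicate 2, 5 of the 9 passed limma's adjusted threshold as higher and 1 as lower, where 57.0% and 14.7% of all genes did, so the higher count was near the share over all genes.

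Of 20 kinases, cofactors and transcription factors that act on Ppargc1a or its product, 18 were tested, and 1 was higher and 0 lower by the unadjusted limma rule, against 17.8% of all genes higher and 4.80% lower. At an unadjusted p alone 3 were higher and 1 lower, against 29.5% and 9.85% of all genes. By the rule with the fold change, 6 were higher and 1 lower with MI replicate 2 removed, near the 35% and 8.42% of all genes, and 0 were higher without MI replicate 1 or 3. Under quantile normalization, median log-ratio scaling and removal of mitochondrial fragments 0 were higher and 1 lower, where 1007, 1143 and 1584 of all genes were higher, against 2040 as reported. With TPM 4 were higher (3741 of all genes), and 3 at a pseudocount of 0.1 (2622) and with voom (2523). In the reported fit the higher gene was Crtc2, a coactivator of CREB, at 2.44 to 2.79 FPKM in sham mice and 5.13, 3.07 and 4.68 FPKM after MI (log2 fold change 0.55, adjusted p = 0.108, limma, and 0.73 without MI replicate 2). Creb1 itself was at 0.692 to 1.24 FPKM against 2.22, 1.3 and 1.99 FPKM, and Foxo1 was at 2.94 to 3.16 FPKM against 4.86, 3.92 and 4.54 FPKM. Prkaa2, the AMP-activated kinase subunit of striated muscle, lay the other way, at 19.3 to 20.8 FPKM in sham mice and 12.2, 18.3 and 11.9 FPKM after MI. These 4 genes have the smallest p-values of the list, and in all of them the groups did not overlap. Over the list, every MI mouse was above every sham mouse for 5 of the 18 and below for 2, against 16.1% and 9.00% of all genes. The median of the list, 0.23, was close to that of all genes, and with MI replicate 2 removed 9 of the 18 were called higher and 1 lower at limma's adjusted threshold, against 57.0% and 14.7% of all genes.

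GABP acts on the Tfam gene, and a further set of proteins works beside TFAM in mitochondria. Of the 3 GABP subunits, 0 passed the unadjusted limma rule: Gabpa was at 7.25 to 7.98 FPKM in sham mice and 7.88, 6.87 and 7.09 FPKM after MI. Gabpb1 and Gabpb2 had log2 fold changes of 0.26 and 0.27 with overlapping groups. Of 15 partners of TFAM in the transcription and copying of mitochondrial DNA, 13 were tested, and 0 were called by the unadjusted rule in either direction, against 17.8% of all genes higher and 4.80% lower. At an unadjusted p alone 1 was higher and 0 were lower, against 29.5% and 9.85% of all genes. That gene was Rnaseh1, which encodes a ribonuclease that removes RNA from RNA-DNA hybrids, at 1.38 to 1.84 FPKM in sham mice and 2.47, 1.69 and 2.38 FPKM after MI. Polrmt, the mitochondrial RNA polymerase, was at 3.63 to 4.18 FPKM in sham mice and 3.02, 3.5 and 3.18 FPKM after MI, below every sham mouse. Polg, the catalytic subunit of the mitochondrial DNA polymerase, was at 2.8 to 3.26 FPKM against 3.75, 3.4 and 4.02 FPKM, above every sham mouse. Tfb1m, a methyltransferase of mitochondrial ribosomal RNA, was at 1.65 to 1.88 FPKM against 1.19, 1.46 and 1.59 FPKM, below every sham mouse. With MI replicate 2 removed, limma's adjusted calls were 2 higher and 0 lower among the GABP subunits and 2 higher and 3 lower among the 13 partners of TFAM, against 57.0% and 14.7% of all genes.

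**Figure D5:**
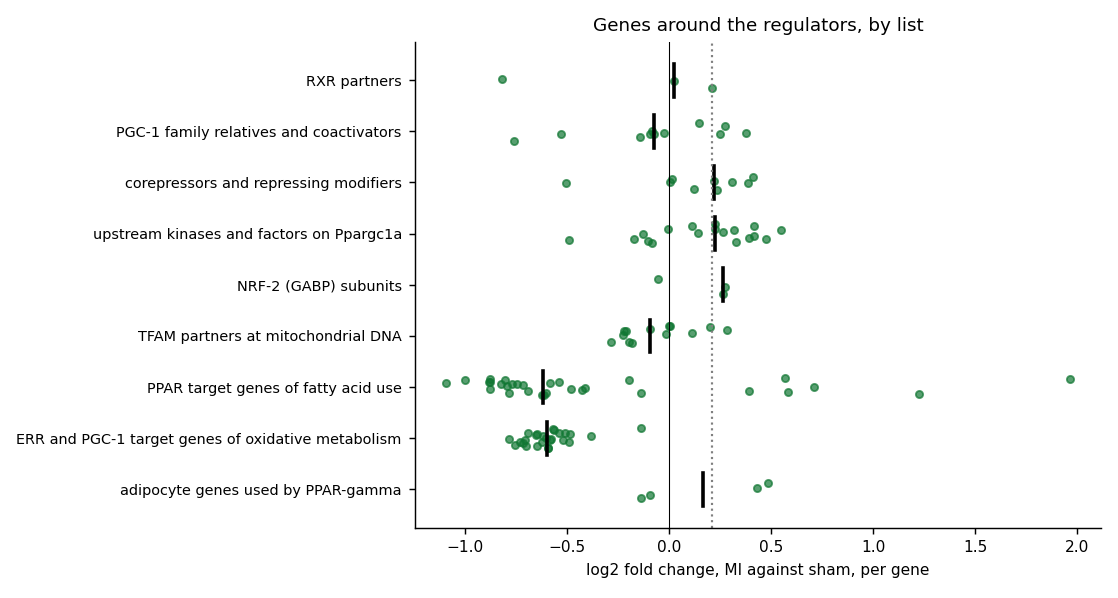
Log2 fold change of MI against sham for every tested gene (green points) of 9 lists of partners, upstream factors and targets; black bars are list medians, and the dotted line is the median of all genes tested, 0.21. The PPAR and ERR target lists have medians of -0.61 and -0.60, and the ERR list has no gene above 0.

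Adipocyte genes, which PPAR-gamma controls in fat, were detected in an uneven way. Of 11 such genes, 4 were tested, and 0 were called by the unadjusted limma rule (17.8% of all genes were called higher and 4.80% lower), although Fabp4 and Lipe had unadjusted p-values of 0.0218 and 0.00797. Of the 4, limma called 2 higher and 1 lower at its adjusted threshold with MI replicate 2 removed, where 57.0% and 14.7% of all genes were. Fabp4, a fatty acid-binding protein that capillary endothelium also expresses, was at 65.6 to 76.3 FPKM in the sham mice and at 89.9, 84.8 and 131 FPKM in MI replicates 1 to 3. Lipe, the hormone-sensitive lipase, was at 4 to 4.73 FPKM against 5.79, 5.22 and 7.19 FPKM. The remaining pair of tested genes did not share this direction: Plin4, a lipid droplet protein, was at 20.9 to 28.2 FPKM in sham mice and 16.3, 32.6 and 21.6 FPKM after MI, and Cidea at 19.6 to 22.9 FPKM against 18.2, 17.3 and 22.9 FPKM. The other 7 were below the filter on low values because they exceeded 1 FPKM in at most 2 mice. Among these, named after their values were seen, Adipoq, the adiponectin gene, was at 0 to 0.144 FPKM in sham mice and at 8.32, 0 and 26.8 FPKM after MI. Cfd, which encodes the serum protease adipsin, was at 0.177 to 0.586 FPKM against 78.1, 0.175 and 231 FPKM. The summed FPKM of the 11 genes was 118 to 125 in sham mice and 225, 140 and 471 after MI, so the sum, though not each of its genes, was highest in the same 2 MI mice in which Pparg exceeded the sham range (3.05 and 3.28 FPKM). Their part in the Pparg level was not tested.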

How the data were processed

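Total RNA from the myocardium of 7 mice (3 MI, 4 sham) was sequenced on an Illumina platform. The authors deposited 1 table of FPKM values per gene and mouse. The submitters' processing notes name CASAVA 1.8, HISAT2, SAMtools 1.3.1, edgeR and genome build mm10, while the annotation, the counting program and its use of strand are not given in the sources used here. Symbols were matched for 52073 of 56980 gene identifiers (91.4%). Because FPKM are not counts, log2(FPKM + 1) was tested with limma 3.58.1 (trend = TRUE) in R 4.3.3, for 11431 genes with at least 1 FPKM in at least 3 mice, with Benjamini-Hochberg adjustment and a threshold of 0.05. A second rule took an unadjusted p under 0.05 with a log2 fold change beyond 0.5. The fit was also run on data simulated with the sham spread in both groups, and its outcome is not given here. The real MI mice spread more, with a median log2 SD over genes of 0.28 against 0.085 in sham mice. Within-family differences were tested by exact two-sided permutation over 35 splits (SciPy 1.17.1), adjusted over 8 pairs. FPKM values stepped in whole fragments for 11952 of 11981 genes searched (99.76%, within 0.05 fragments), which gave each library's depth. FPKM depends on the total of each library, so the lower mitochondrial share of MI replicates 1 and 3 raises the FPKM of other genes there. P-values measure only the spread between these samples, which may in part be technical.

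The 10 regulators and the 9 lists around them were chosen with earlier results of these data known. From each list up to 4 tested genes with the smallest p were named, together with the 5 genes nearest in profile to Ppargc1a. No set test was run on any list. Coordinates are those of GENCODE M21 on mm10 and promoters those of RefSeq. The alternatives comprised 18 settings of scaling, filter, pseudocount, weighting, fragment-based voom, a replicate block and each mouse left out, and 1 count without MI replicate 2 was added after seeing the data.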

Additional observations from a re-analysis of the deposited data

Results flagged for a closer look

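Of 18 sets of sham values examined for a value far from the others, 1 stood out, and chance alone flags about 1 in 20. The log2 difference Ppara minus Pparg was 1.17, 1.19, 0.94 and 1.16 in sham replicates 1 to 4, and the gap below the other mice took up 0.873 of the whole range, past Dixon's critical value for 4 samples. The low value of sham replicate 3 came with 3.02 FPKM of Pparg, the highest of the sham mice.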

How the results depend on the processing

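MI replicate 2 decided how many regulators passed the adjusted threshold. The number lower at an adjusted limma p under 0.05 ranged from 0 to 6 when each mouse was left out, with 6 only without MI replicate 2, and the number lower by the unadjusted rule with a log2 fold change beyond 0.5 ranged from 1 to 4, with 1 without MI replicate 1 or 3, where Ppara was no longer called. With MI replicate 2 removed, 7 regulators had both remaining MI mice below every sham mouse and 1 had both above, where 16.9% and 61.9% of tested genes did so. Over all genes, adjusted calls ranged from 0 to 6512 higher and from 0 to 1683 lower, and calls by the unadjusted rule from 637 to 4006 higher and from 177 to 962 lower, where the lowest counts by the unadjusted rule came without MI replicate 1 and all the highest without MI replicate 2. Sample weights called 7 regulators lower and 1 higher (Pparg), 7636 genes higher and 2316 lower, or 3730 and 910 by the unadjusted rule, but gave MI replicate 3 a weight of 437 and MI replicate 2 one of 0.0217, so they rest on 1 MI mouse.

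All 7 regulators with a negative log2 fold change kept that sign under the 18 settings, while Ppard became -0.20 under quantile normalization, -0.14 under median log-ratio scaling and -0.039 without mitochondrial fragments, and Pparg -0.104 and -0.045 under the former 2. By the unadjusted rule 4 regulators were lower under quantile normalization and under median log-ratio scaling. The change of Esrra minus Esrrg ranged from -0.029 to 0.185 over the mice left out. At an unadjusted p alone, 5 regulators were lower as reported, 2 with TPM, 1 with the replicate block, 7 (and 1 higher) with sample weights, and 2 to 7 when each mouse was left out, with 2 without MI replicate 3 or sham replicate 1, 3 without MI replicate 1, sham replicate 2 or sham replicate 3, and 7 without MI replicate 2. With TPM, Esrra (-0.17), Esrrg and Tfam (-0.05) were no longer among them.

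Adjusted limma calls over all genes were 5 higher at a pseudocount of 0.1, 20 higher without the filter, 10 higher and 5 lower under quantile normalization, 6 and 2 under median log-ratio scaling, 8 and 3 without mitochondrial fragments, 1 higher with voom on fragments, 0 and 0 with the filter on the mean (2337 higher and 536 lower by the unadjusted rule) and 0 lower with TPM. By the unadjusted rule TPM gave 3741 higher and 296 lower, quantile normalization 1007 and 1143, median log-ratio scaling 1143 and 1107, and removal of mitochondrial fragments 866 lower. Relative to the median gene, the list median of the corepressors was 0.081 at a pseudocount of 0.1 and 0.078 with voom (0.014 as reported), that of the upstream factors was -0.16 with sample weights (0.02), and that of the GABP subunits was 0.17 at a pseudocount of 0.1, 0.11 under quantile normalization, -0.009 with sample weights and 0.201 with voom (0.055).

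Mice with the same replicate number did not deviate together (r = 0.074, -0.016 and -0.08 for replicates 1 to 3), so the numbers were not taken as pairs. With a replicate block, limma gave 0 adjusted calls among all genes in either direction (1534 higher and 427 lower by the unadjusted rule), and 1 regulator was lower by that rule, Ppargc1b, with 7 of the 26 ERR and PGC-1 targets and 1 of the 11 coactivators. Fragment numbers limit Nrf1 and Pparg most.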

Other observations

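Pdk4, a kinase that inhibits pyruvate dehydrogenase and a PPAR target named, like Ucp3, after its values were seen, was at 40.4 to 84.8 FPKM in the sham mice and at 61.9, 185 and 87.8 FPKM in MI replicates 1 to 3. MI replicate 2 thus had the highest level of the 7 mice, as it did for Ucp3, which encodes a carrier of the inner mitochondrial membrane (4.72 to 8.94 FPKM in sham mice, 9.95 FPKM in MI replicate 2, 2.73 and 3.02 FPKM in the other MI mice). The groups overlapped for both genes, with adjusted limma p-values of 0.193 and 0.27.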
